A study of Homo sapiens with 8 samples.

Results

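NF-kB and inflammatory response genes were examined in ATAC-seq peak lists of U2OS cells, a human osteosarcoma line. The 10 genes were NFKBIA, TNFAIP3 and BIRC3, which act as inhibitors or feedback regulators, NFKB1, NFKB2 and RELB, which encode subunits, and CXCL8, CXCL1, CXCL2 and IL6, which are targets. Each gene was taken from GENCODE release 44 with 20 kb on each side. A list held between 49 and 72 accessible regions at these loci, together 508 of 1440417 regions in the 8 lists. Joined across libraries, they formed 144 of 547779 sites, between 10 and 22 for each gene.

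WT and ASH1L-/- cells were each left unchallenged or collected 3 h after UV-C at 20 J per square metre, which gave 4 groups of 2 libraries. ASH1L is a histone methyltransferase. Its gene had been disrupted by CRISPR/Cas9 deletions in exons, and the cells had been grown from individual colonies, so traits of a colony and the loss of ASH1L cannot be told apart. The genotype was taken from the labels and not checked in these lists. Dead or damaged cells had been digested with DNase in all groups, and accessibility is not RNA.

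NF-kB is a family of dimeric transcription factors that IkB proteins such as the product of NFKBIA hold in the cytoplasm. Cytokines, microbial products and UV can lower IkB, and the freed dimers bind kB sites in promoters and enhancers. Among the genes they switch on are their own inhibitors, so that the response is limited by feedback.

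The lists held between 158198 and 220783 regions, and library depth, taken as the lowest background pileup recovered from each list, lay between 1.39 and 5.87. The deepest library was replicate 1 of the unchallenged ASH1L-/- cells (5.87) and the shallowest was replicate 2 of the same group (1.39), while the 4 UV libraries lay between 2.45 and 2.81. At genome background, a summit needed a fold enrichment between 1.89 and 2.51 to enter a list. The mesenchymal markers VIM, FN1, PRRX1 and RUNX2 had a promoter region in all 8 lists, which makes 4 of 6, whereas COL1A2 had one in 7 lists and TWIST1 in 2. The endothelial marker CDH5 had none in any list. The epithelial markers EPCAM and CDH1 had one in all 8 lists, so promoter accessibility alone did not separate these classes.

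DNA sequences are shown for 5 promoters and 5 flanking or intronic sites to which the results return. Promoters are given from position -150 to -54 relative to the canonical transcription start site (TSS), on the strand of the gene, in hg38. Sites are given as 101 bases around the summit on the plus strand. Capitals mark matches, on either strand, to the 10-base kB consensus, to the 9-base core GGAANNTCC, which can overlap it, and to TGANTCA, the AP-1 core.
CXCL8 promoter: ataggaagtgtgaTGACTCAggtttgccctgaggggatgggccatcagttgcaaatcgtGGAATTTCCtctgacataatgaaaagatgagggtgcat
CXCL1 promoter: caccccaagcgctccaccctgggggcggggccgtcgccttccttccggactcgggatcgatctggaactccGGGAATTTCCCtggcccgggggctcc
CXCL2 promoter: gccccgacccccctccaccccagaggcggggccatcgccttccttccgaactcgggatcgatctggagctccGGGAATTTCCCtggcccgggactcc
IL6 promoter: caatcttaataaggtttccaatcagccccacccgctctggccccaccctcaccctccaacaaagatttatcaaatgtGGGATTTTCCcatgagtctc
NFKBIA promoter: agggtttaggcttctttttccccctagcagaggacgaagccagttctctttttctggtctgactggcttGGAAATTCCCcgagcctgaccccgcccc
CXCL8 site at -18.55 kb: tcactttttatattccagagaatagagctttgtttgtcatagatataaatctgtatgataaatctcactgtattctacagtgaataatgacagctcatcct
CXCL8 site at -17.26 kb: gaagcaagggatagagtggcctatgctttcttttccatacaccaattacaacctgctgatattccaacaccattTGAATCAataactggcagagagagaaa
CXCL8 site at -5.76 kb: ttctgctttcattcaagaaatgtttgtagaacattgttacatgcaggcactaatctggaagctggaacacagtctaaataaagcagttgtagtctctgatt
TNFAIP3 intronic site at 6.28 kb: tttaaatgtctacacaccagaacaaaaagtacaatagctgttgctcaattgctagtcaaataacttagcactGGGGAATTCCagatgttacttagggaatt
NFKB1 intronic site at 63.11 kb: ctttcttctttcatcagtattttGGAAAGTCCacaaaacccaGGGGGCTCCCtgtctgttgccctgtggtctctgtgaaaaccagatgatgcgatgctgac

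The promoter windows lay at chr4:73740419-73740515 for CXCL8, chr4:73869243-73869339 for CXCL1, chr4:74099249-74099345 on the minus strand for CXCL2, chr7:22727050-22727146 for IL6 and chr14:35404803-35404899 on the minus strand for NFKBIA. The CXCL8 sites lay at chr4:73721972-73722072, chr4:73723263-73723363 and chr4:73734756-73734856, the TNFAIP3 site at chr6:137873487-137873587 and the NFKB1 site at chr4:102564417-102564517. The kB consensus matched at -79 to -69 in CXCL1, at -78 to -68 in CXCL2, at -73 to -64 in IL6 and at -81 to -72 in NFKBIA. CXCL8 had no match to it in this window, but the core GGAANNTCC at -91 to -83 and TGANTCA at -137 to -131. In the same window the kB consensus stood in 4.55% of 19962 protein-coding promoters, GGAANNTCC in 1.34% and TGANTCA in 1.97%. The 101-base windows of all 547779 sites held them in 2.48%, 1.295% and 4.67% of cases. A match is a description of letters, not of binding.

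The promoters of the 10 genes were, with few exceptions, open before UV. A region lay within 1 kb of a TSS in all 8 lists for 8 of the 10 genes, against 67.6% of 19962 protein-coding genes. CXCL1, a chemokine for neutrophils, was the only one of them with no promoter region in any list, as in 11.8% of genes. CXCL2, its close relative, had a promoter region in 4 lists, at a percentile of 15.1 in replicate 1 of WT post UV, 64.5 in replicate 1 of unchallenged ASH1L-/- and 10.49 and 32.6 in ASH1L-/- post UV. The percentile is the rank of a region by fold enrichment within its own list, on a scale to 100. The kB consensus of the CXCL1 promoter therefore lay in DNA in which no list called a region, whereas that of IL6 lay in a region of all 8 lists.

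**Figure D1:**
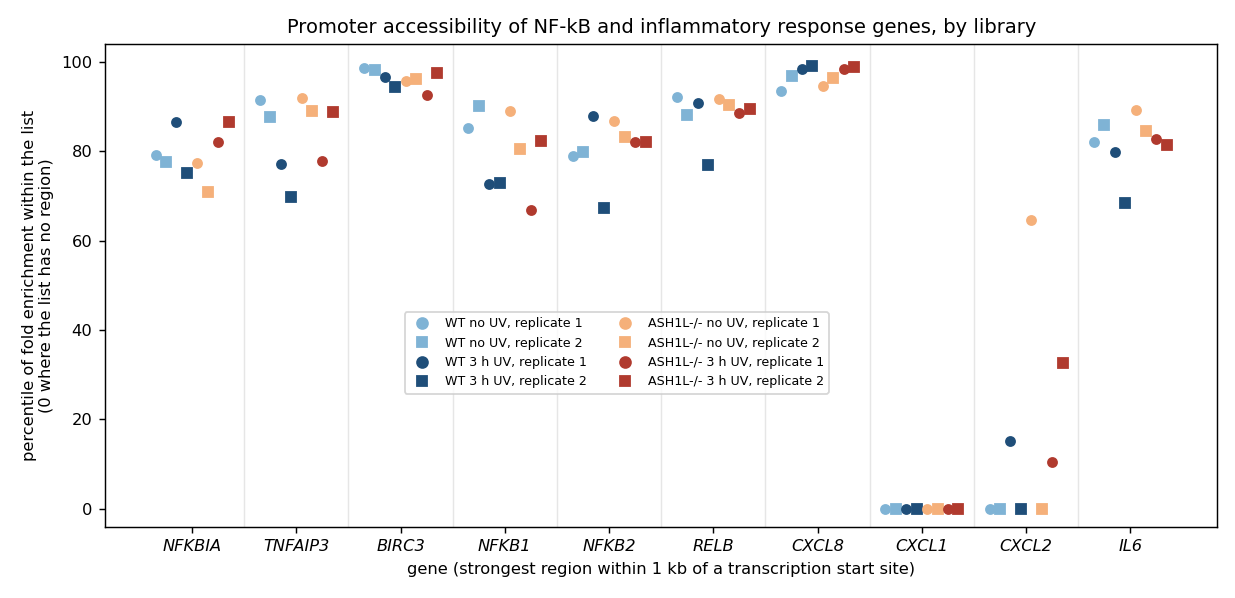
Percentile of fold enrichment (vertical axis, 0 to 100, 0 where a list has no region) of the strongest region within 1 kb of a TSS, for each of the 10 genes and 8 libraries. Each point is 1 library, coloured by group with the shape giving the replicate. For NFKBIA the strongest region is in the gene-body site, except in replicate 2 of unchallenged ASH1L-/- cells. The 4 UV libraries of CXCL8 sit between 98.5 and 99.1, above all 4 unchallenged libraries, and CXCL1 stays at 0.

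To ask which sites ranked differently after UV, the rank of each site was turned into a normal score and fitted with limma over the 60324 sites present in all 8 lists. Of the members' 144 sites, 29 were present in all 8 lists and 70 in a single list. After UV the score rose at 1 of the 29 sites (4.65% of all sites rose), the CXCL8 promoter, and fell at 2 (5.95% of all sites fell), at -14.25 kb from CXCL8 and at 25.26 kb from NFKB2. These shares are near those of all sites. The median UV difference in score was -0.23 over the members' sites and -0.08 over all sites.

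The score compares a summit with the local background that the peak caller took from the reads around it. A rise in both can leave the score unchanged. Both quantities were therefore recovered from the lists, divided by library depth, and centred on the median of the 60324 sites in each library. This choice was made after the values had been seen. How far the summit's own reads enter its local background was not tested. A rise of the background is thus not separate evidence of broad opening. Before centring, the UV difference in log2 pileup had a median of 0.48 over all sites, and centring lowered every difference by 0.59, leaving a median of -0.10. The centred values are relative to that shift, while values over depth are not. Scores are ranks within a list, with a median UV difference of -0.08 over all sites. With centring, the pileup rose at 6 of the 29 sites (10.7% of all sites) and fell at 2 (11.8% of all sites). The local background rose at 13 of the 29 sites (12% of all sites) and fell at 1 (11.9% of all sites).

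Neighbouring sites of a gene share much of their local background and are not separate observations. By gene, it rose at 2 of 4 sites of NFKBIA, 3 of 3 of TNFAIP3, 3 of 4 of BIRC3, 1 of 2 of NFKB1, 2 of 5 of NFKB2 and 2 of 2 of CXCL8. It was called at none of 4 sites of RELB, 2 of CXCL2 and 3 of IL6, and CXCL1 had no site in all 8 lists. The genes with a rise thus included inhibitors, subunits and a target.

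**Figure D2:**
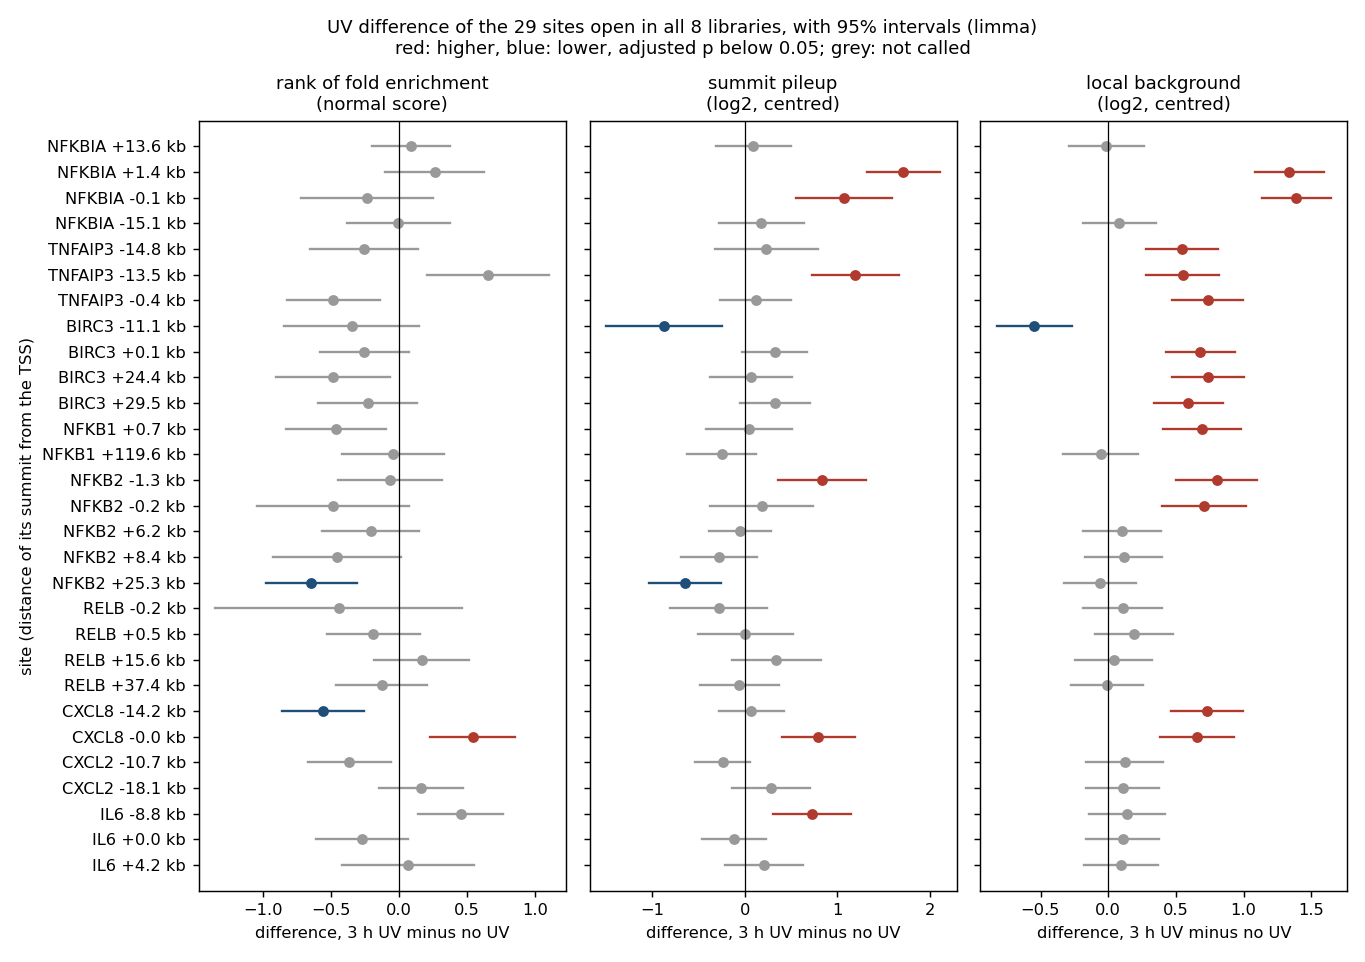
Difference between 3 h UV and no UV (horizontal axes) for the 29 sites with a region in all 8 libraries, as the normal score of the rank, as centred log2 summit pileup and as centred log2 local background. Points are limma estimates from 4 against 4 libraries and lines their 95% intervals. Red marks the sites called higher (1, 6 and 13) and blue those called lower (2, 2 and 1).

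NFKBIA, the IkB alpha inhibitor that NF-kB itself induces, held the site with the highest centred pileup difference of the 29. Its site in the gene body (chr14:35402845-35404238, overlapping an exon) had a summit pileup over depth of 12.9 and 14.9 in unchallenged WT cells and 65.2 and 80.4 in WT post UV. In ASH1L-/- it was 6.82 and 12.2 when unchallenged and 40.04 and 45.1 post UV. All 4 UV libraries lay above all 4 unchallenged ones, with a ratio of geometric means of 4.93 before centring, each library being read at its own highest summit. The centred log2 difference was 1.72 ± 0.18 (SE, limma, adjusted p = 4.15e-05). Part of this site lay within 1 kb of the TSS, so it also counted as a promoter site. It gave the NFKBIA promoter percentile in every list except replicate 2 of unchallenged ASH1L-/- cells.

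The local background at the same site over depth was 1.88, 1.897, 1.61 and 2.09 in the unchallenged libraries and 6.35, 7.97, 4.16 and 4.49 after UV. Again the groups did not overlap, and the centred log2 difference was 1.34 ± 0.12 (SE, limma, adjusted p = 1.11e-08). The deposited fold enrichment went from between 3.92 and 6.28 to between 8.86 and 9.73. The percentile overlapped, from 79.2 and 77.6 to 86.6 and 75.2 in WT and from 77.3 and 67.1 to 82.0 and 86.5 in ASH1L-/- cells, so the score was not called (difference 0.26 ± 0.17, SE, limma, adjusted p = 0.336).

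The highest summit of the NFKBIA site also stood elsewhere. It lay 968, 977, 963 and 778 bp downstream of the TSS in the unchallenged libraries, and 1417, 1425, 1422 and 1423 bp downstream in the UV libraries. The values above therefore compare highest summits at different positions. A weaker summit near the position seen after UV was also listed in 3 unchallenged libraries, at 1431 and 1436 bp in WT and 1442 bp in replicate 1 of ASH1L-/- cells, with pileups over depth of 7.15, 5.75 and 4.43. Those of the UV libraries there, between 40.04 and 80.4, lay above them.

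**Figure D3:**
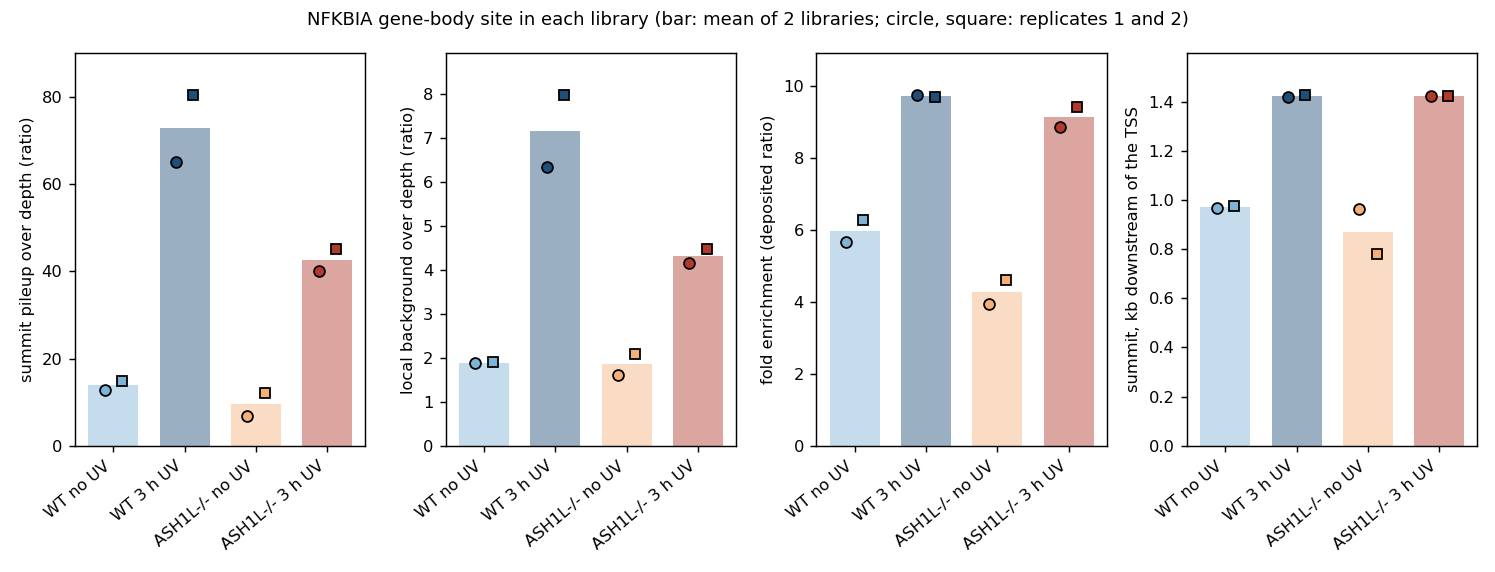
The NFKBIA gene-body site in the 4 groups, as summit pileup over depth, local background over depth, deposited fold enrichment (all ratios) and distance of the highest summit from the TSS in kb. Bars are means of 2 libraries and points the libraries. In every panel all 4 UV libraries lie above all 4 unchallenged libraries.

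The NFKBIA promoter site upstream of the TSS (chr14:35404531-35405205), which holds the kB match, also rose on this scale. Its pileup over depth was 8.57, 8.05, 6.30 and 12.9 in the unchallenged libraries and 38.7, 36.3, 21.2 and 18.8 after UV, without overlap. The centred difference was 1.07 ± 0.24 (SE, limma, adjusted p = 0.00569), while the score was lower by 0.24 and not called (adjusted p = 0.531, limma). The strongest intergenic site of the locus, 13.60 kb downstream of the TSS, was not called after UV by score or pileup, with a centred pileup difference of 0.09 ± 0.19 (SE, limma, adjusted p = 0.764). Both pileup calls, in the gene body and at the promoter, held without any 1 library.

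TNFAIP3, which encodes the deubiquitinase A20, had a site in all 4 UV lists and in no unchallenged list. The intronic site at chr6:137873212-137873718 had percentiles of 90.9 and 78.3 in WT and 76.5 and 56.6 in ASH1L-/- post UV, with fold enrichments of 11.497, 10.54, 7.51 and 3.93. The kB consensus matched 22 to 31 bases past its summit. Of the members' 144 sites, 4 were in all 4 UV lists and no other list (0.686% of all sites), and none was in all 4 unchallenged lists alone (0.0969%). The other 3 lay upstream of CXCL8. By this definition no unchallenged list, that of the deepest library included, had a region at any of the 4.

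The TNFAIP3 site at -13.46 kb rose on the pileup scale. Its pileup over depth was 6.67, 6.90, 2.73 and 5.04 without UV and 19.4, 35.2, 11.4 and 11.4 after UV. The groups did not overlap, with a centred difference of 1.20 ± 0.22 (SE, limma, adjusted p = 0.00145) that held without any 1 library. By rank it stood at percentiles of 55.0, 53.1, 45.1 and 40.5 without UV and 76.8, 74.3, 66.3 and 74.0 after UV. These did not overlap either, but the score missed the threshold (difference 0.65 ± 0.21, SE, limma, adjusted p = 0.0602). Over the sites in all 8 lists, the percentile of 3 of the 29 member sites was higher in all UV lists (5.99% of such sites) and of 4 lower (12.3%). The only one of these 7 not described elsewhere was the NFKB2 site at 8.39 kb, which was lower.

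The strongest flanking site of TNFAIP3, at -14.75 kb, was not called by score (-0.26 ± 0.18, SE, limma, adjusted p = 0.394). The TNFAIP3 promoter had percentiles of 91.6, 87.6, 91.9 and 89.1 without UV and 77.1, 69.8, 77.8 and 88.7 after UV. The score difference was -0.48 ± 0.16 (SE, limma, adjusted p = 0.0664). The pileup pointed the other way, with a centred difference of 0.12 ± 0.18 (SE, limma, adjusted p = 0.681), and the local background rose by 0.73 ± 0.13 (SE, limma, adjusted p = 9.06e-05). No direction for this promoter held on all scales.

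**Figure D4:**
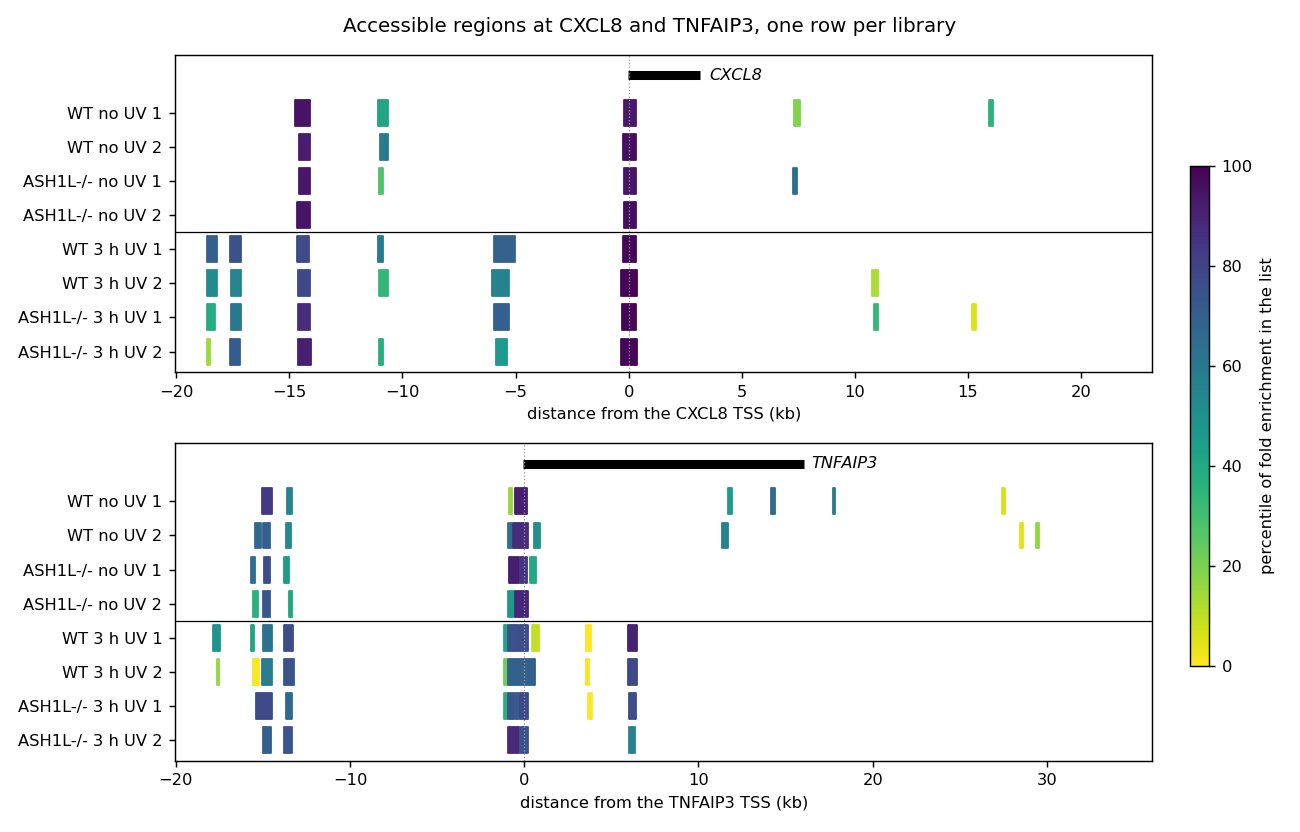
Accessible regions (boxes) at CXCL8 and TNFAIP3 by distance from the TSS in kb, with a row for each library, unchallenged above the line and 3 h post UV below, and the gene as a black bar. The colour gives the percentile of fold enrichment. Sites at -18.55, -17.26 and -5.76 kb of CXCL8 and at 6.28 kb of TNFAIP3 have a box in the 4 UV rows alone.

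BIRC3 encodes the ubiquitin ligase cIAP2, which acts with TRAF proteins below TNF receptors. Its promoter was among the most accessible of the members, with percentiles between 92.6 and 98.7. The pileup over depth was 41.9, 49.4, 18.2 and 34.5 without UV and 73.5, 104.3, 40.5 and 52.2 after UV. These ranges overlapped, and the centred difference of 0.32 ± 0.16 was not called (SE, limma, adjusted p = 0.176), nor was the score (-0.25 ± 0.15, SE, limma, adjusted p = 0.301). The local background there rose by 0.68 ± 0.12 (SE, limma, adjusted p = 0.000136).

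The site 11.14 kb upstream of BIRC3 was the only one whose local background fell (-0.55 ± 0.13, SE, limma, adjusted p = 0.00359). Its pileup also fell (-0.87 ± 0.29, SE, limma, adjusted p = 0.0447), but that call was lost without either unchallenged ASH1L-/- library or replicate 1 of any other group (adjusted p between 0.0843 and 0.213, limma). The fall of the local background was lost without replicate 1 of ASH1L-/- post UV (-0.41, adjusted p = 0.0778, limma). The strongest other site of the locus, at 29.47 kb, lay at the promoter of BIRC2, which encodes the related cIAP1. Its centred pileup difference was 0.33 (adjusted p = 0.203, limma), and its score difference -0.23 ± 0.17 (SE, limma, adjusted p = 0.397).

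NFKB1 encodes p105, the precursor of p50. Its promoter site had percentiles of 85.3, 90.1, 89.0 and 80.4 without UV and 72.6, 72.9, 66.8 and 82.3 after UV, which overlapped. The score was not called (-0.46 ± 0.17, SE, limma, adjusted p = 0.0999), and the centred pileup differed by 0.05 ± 0.22 (SE, limma, adjusted p = 0.9002). The local background rose by 0.69 ± 0.14 (SE, limma, adjusted p = 0.000495). The strongest site of the locus, 119.56 kb from the TSS and past the gene's end, stayed at percentiles between 94.0 and 99.1 (score difference -0.04 ± 0.17, SE, limma). Another site past the gene's end, about 126.4 kb from the TSS, stood higher after UV in both genotypes. Its percentiles were 68.4 and 72.5 in unchallenged WT and 82.9 in replicate 1 of unchallenged ASH1L-/- cells. After UV they were 94.4 and 96.6 in WT and 93.9 and 95.6 in ASH1L-/- cells. The shallowest library had no region there, so this site was not fitted.

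An NFKB1 intronic site (chr4:102564185-102564861) had a region in both WT lists 3 h post UV, at percentiles of 88.4 and 83.1 and fold enrichments of 10.4 and 11.99, and in none of the other 6 lists. A kB consensus match spanned its summit, from -8 to 1, and GGAANNTCC stood at -27 to -19. Of the 144 sites, 2 were in both WT UV lists alone (0.53% of all sites), the other being a weaker one at -17.59 kb of TNFAIP3 (48.1 and 15.7). In turn 2 were in both ASH1L-/- UV lists alone (0.622% of all sites), near RELB and CXCL2. With 2 lists against 2, such a difference in UV response between genotypes was not tested. Another NFKB1 site, 34.33 kb from the TSS, had a region in 3 WT lists (61.6, 68.4 and 75.7) and in no ASH1L-/- list.

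NFKB2 encodes p100, the precursor of p52 and an inhibitor of RELB. Its strongest promoter site, 1.26 kb upstream of the canonical TSS, had a pileup over depth of 24.8, 31.0, 15.2 and 37.4 without UV and 100, 84.1, 56.4 and 46.9 after UV. All UV libraries lay above all unchallenged ones, and the centred difference was 0.83 ± 0.22 (SE, limma, adjusted p = 0.0155), a call lost without replicate 1 of WT post UV or of either ASH1L-/- group (adjusted p between 0.0644 and 0.0716, limma). The local background rose by 0.80 ± 0.15 (SE, limma, adjusted p = 0.000185). The score did not follow (-0.07 ± 0.18, SE, limma, adjusted p = 0.843). A site about 13.5 kb downstream of the TSS had no region in replicate 1 of unchallenged WT or ASH1L-/- cells. In replicate 2 it had percentiles of 8.80 and 12.3. After UV it stood at 60.2 and 54.2 in WT and 45.5 and 70.8 in ASH1L-/- cells, and it was not fitted.

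The site 25.26 kb from the NFKB2 TSS, at the promoter of FBXL15 and PSD, fell in score. Its percentiles were 96.8, 96.4, 94.5 and 97.8 without UV and 89.7, 80.8, 86.9 and 92.6 after UV, which did not overlap. The difference was -0.64 ± 0.16 (SE, limma, adjusted p = 0.0204). The centred pileup, in log2 and so not comparable in size with the score, also fell (-0.65 ± 0.18, SE, limma, adjusted p = 0.0194). Without centring the pileup difference was -0.06 (adjusted p = 0.916, limma). Score and centred pileup both lost the call without replicate 2 of WT post UV, replicate 2 of unchallenged ASH1L-/- or replicate 1 of ASH1L-/- post UV (adjusted p for the score between 0.0764 and 0.106, limma).

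RELB, the subunit of the alternative pathway that pairs with p52, had none of its 4 sites called on any of these scales. Its promoter stood at percentiles of 92.2, 88.2, 91.6 and 90.2 without UV and 90.8, 77.0, 88.5 and 89.5 after UV. The ranges overlapped, and neither score (-0.19 ± 0.16, SE, limma, adjusted p = 0.468) nor centred pileup (0.01 ± 0.24, 95% interval -0.50 to 0.52, limma, adjusted p = 0.987) was called. The strongest other site, 37.44 kb from the TSS at the promoter of CLASRP, differed in score by -0.13 ± 0.15 (SE, limma, adjusted p = 0.629).

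CXCL8 encodes interleukin 8, a chemokine that attracts neutrophils and a classic joint target of NF-kB and AP-1. Its promoter (chr4:73740234-73740946), with GGAANNTCC and TGANTCA in the sequence above, stood at percentiles of 93.5 and 96.7 in unchallenged WT and 94.6 and 96.5 in unchallenged ASH1L-/- cells. After UV it stood at 98.5 and 99.1 in WT and 98.5 and 98.8 in ASH1L-/- cells. The groups did not overlap, and the score rose by 0.54 ± 0.15 (SE, limma, adjusted p = 0.0315). Only 1.76% of genes with a fitted promoter had a higher UV difference.

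The promoter percentile of CXCL8 was the only one among the 10 genes to be higher in all UV lists (1.81% of genes), and none was lower in all of them (13.8% of genes). On this value alone the exact permutation test gave p = 0.0286 (two-sided, n = 4 and 4, the smallest it allows) and 0.183 after adjustment over all genes. The pileup over depth went from 20.0, 35.1, 15.8 and 37.4 to 66.0, 82.7, 64.1 and 54.4, also without overlap. The centred pileup rose by 0.79 ± 0.18 (SE, limma, adjusted p = 0.00694) and held without any 1 library. The score kept its call without replicate 1 of WT post UV or replicate 2 of unchallenged WT, and lost it without any of the other 6 libraries (adjusted p between 0.0564 and 0.114, limma).

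Upstream of CXCL8, 3 further sites appeared in all 4 UV lists and in no unchallenged list. The site at -18.55 kb had percentiles of 69.8 and 52.4 in WT and 38.6 and 14.5 in ASH1L-/- post UV. The site at -17.26 kb, which holds TGANTCA, had 75.3, 54.3, 60.0 and 71.4. The site at -5.76 kb had 68.9, 55.9, 70.3 and 45.9, and showed no match to these motifs, like that at -18.55 kb. Among the 3757 such sites of the genome, 4.42% held the kB consensus and 13.0% held TGANTCA.

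Between them, the intergenic site at -14.25 kb was open in every library. It ranked at percentiles of 95.1, 92.0, 94.0 and 94.9 without UV and 77.4, 78.5, 86.8 and 91.2 after UV, without overlap, with a score difference of -0.56 ± 0.14 (SE, limma, adjusted p = 0.0235). That call was lost without replicate 1 of unchallenged WT, replicate 2 of any other group or replicate 1 of ASH1L-/- post UV (adjusted p between 0.0558 and 0.116, limma). Its pileup was not called (centred 0.07 ± 0.16, SE, limma, adjusted p = 0.791), while its local background rose by 0.73 ± 0.13 (SE, limma, adjusted p = 0.000107).

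The number of regions over CXCL8 with its flanks was 5, 4, 4 and 2 without UV and 6, 7, 7 and 6 after UV. The groups did not overlap (two-sided exact permutation test over 4 against 4 libraries, p = 0.0286 and 1.0 after adjustment over all genes). Of the 10 genes, 1 had more regions in all UV lists (1.37% of genes) and none had fewer (1.1% of genes).

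CXCL1 and CXCL2 differed between genotypes rather than after UV in the number of regions. Over CXCL1 there were 2, 0, 1 and 2 regions in the WT lists and 9, 4, 5 and 8 in the ASH1L-/- lists. Over CXCL2 there were 3, 2, 3 and 2 in the WT lists and 7, 4, 4 and 7 in the ASH1L-/- lists. In both the genotypes did not overlap (the same exact test, p = 0.0286 each and 0.733 after adjustment over all genes). They were the 2 of 10 genes with more regions in all ASH1L-/- lists (1.92% of genes), and none had fewer (1.98% of genes). They lie near each other on chromosome 4 and are not separate observations. Among their neighbours, CXCL5 and CXCL6, which encode related chemokines, separated the genotypes in the same way, whereas CXCL3 and CXCL8 did not. CXCL5 had 1, 5, 5 and 3 regions in WT and 10, 9, 6 and 11 in ASH1L-/- lists, and CXCL6 had 2, 6, 6 and 5 in WT and 11, 10, 9 and 9 in ASH1L-/- lists. CXCL3 had 3, 6, 5 and 4 in WT and 8, 5, 4 and 7 in ASH1L-/- lists, which overlapped. CXCL8 had 5, 4, 6 and 7 in WT and 4, 2, 7 and 6 in ASH1L-/- lists, which also overlapped.

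The surroundings of CXCL1 and CXCL2 moved in the same direction. Within 1 Mb on each side of CXCL1, the WT lists held between 130 and 158 further regions and the ASH1L-/- lists between 166 and 258 (the same exact test, p = 0.0286). The surroundings of CXCL8, which overlap these, held between 128 and 153 and between 166 and 274. As a percent of the surrounding regions, a measure added after the values had been seen, CXCL1 had 1.36, 0, 0.769 and 1.52 in WT lists and 3.49, 2.35, 3.01 and 4.15 in ASH1L-/- lists, still without overlap. The percent for CXCL2 did not overlap either, with means of 2.91 in ASH1L-/- and 1.89 in WT lists. Around TNFAIP3 the order was the opposite, with 115 to 153 regions in WT lists and 74 to 105 in ASH1L-/- lists.

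Few of the CXCL1 sites were shared between libraries, with 12 of 16 in a single list. One, at -16.0 kb from CXCL1 and at the promoter of PF4V1, was in all 4 ASH1L-/- lists and in no WT list (0.187% of all sites), at percentiles of 0.484, 45.3, 17.0 and 45.5. No member site was in all 4 WT lists alone (0.0769% of all sites). The strongest CXCL1 site, at 13.95 kb, was in 6 lists and absent from both unchallenged WT lists.

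CXCL2 had its strongest site at -10.68 kb, in all 8 lists. It ranked at 97.1, 96.7, 98.8 and 96.8 without UV and at 92.9, 92.3, 96.2 and 95.6 after UV. These did not overlap, but neither the score (-0.37 ± 0.14, SE, limma, adjusted p = 0.114) nor the centred pileup (-0.24 ± 0.14, SE, limma, adjusted p = 0.237) was called.

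IL6 encodes interleukin 6. Its promoter had percentiles of 82.1, 85.8, 89.3 and 84.5 without UV and 79.8, 68.5, 82.7 and 81.4 after UV, which overlapped. Neither score (-0.27 ± 0.16, SE, limma, adjusted p = 0.275) nor centred pileup (-0.11 ± 0.16, 95% interval -0.46 to 0.23, limma, adjusted p = 0.650) was called. The site at -8.77 kb, within STEAP1B, stood at 82.2, 84.2, 77.2 and 68.5 without UV and 90.0, 91.2, 87.9 and 87.6 after UV, without overlap. Its score difference of 0.45 ± 0.15 missed the threshold (SE, limma, adjusted p = 0.0625), and its centred pileup rose by 0.72 ± 0.20 (SE, limma, adjusted p = 0.0175), a call lost without replicate 1 of either UV group or replicate 2 of unchallenged ASH1L-/- (adjusted p between 0.0625 and 0.0754, limma).

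Between genotypes, no member site was called by score (0.103% of all sites higher and 0.0564% lower in ASH1L-/- cells, lowest adjusted p of a member 0.22, limma, 1 site at an unadjusted p under 0.05). No promoter percentile of the 10 genes separated the genotypes either (1.81% of genes higher and 0.807% lower). On the centred pileup, 1 site was called higher (3.74% of all sites) and 2 lower (4.33% of all sites). The lower ones were the BIRC3 promoter (-0.58, adjusted p = 0.0430, limma) and the NFKB1 site at 119.56 kb (-0.67, adjusted p = 0.0329, limma). The higher one was the NFKBIA site at 13.60 kb, by 0.79 (adjusted p = 0.0232, limma), with percentiles of 83.8, 83.7, 88.2 and 90.6 in WT and 94.3, 95.3, 93.9 and 93.7 in ASH1L-/- cells.

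The centred local background was called higher in ASH1L-/- cells at 1 member site (7.61% of all sites) and lower at 7 (10.7% of all sites). These 7 were all 3 sites of TNFAIP3, both of NFKB1, the BIRC3 promoter and an NFKB2 site at 6.21 kb. The TNFAIP3 sites differed by between -0.63 and -0.71, and the surroundings of the gene, as above, also held fewer regions.

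By score, the UV response was not called as different between genotypes at any member site, nor at any other (0% called, limma, with 1690 of 60324 sites and no member site at an unadjusted p under 0.05). The intervals were wide. With the ASH1L-/- response subtracted from that of WT, the CXCL8 promoter differed by 0.09 in score (95% interval -0.54 to 0.71, limma). The NFKBIA gene body differed by 0.36 in centred pileup (95% interval -0.43 to 1.15, limma) and by 0.70 in centred local background (0.19 to 1.21, limma, adjusted p = 1.0). No member site was called for this contrast on these scales either.

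Among 36 further genes of the pathway, which include other subunits, IkB proteins, kinases, adaptors, receptors and targets, 29 had a promoter region in all 8 lists and LIF had none. The score of the strongest promoter site rose at 3 of these 29 (0.942% of 13272 genes) and fell at none (7.48% of genes), and none was called between genotypes. The median UV difference was -0.20 over the 29 and -0.21 over all genes.

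NFKBIZ, which encodes an atypical IkB protein of the nucleus, went from percentiles of 89.8, 86.6, 89.8 and 87.3 to 98.3, 95.6, 94.99 and 89.7, with an overlap only at its last value (0.80 ± 0.16, SE, limma, adjusted p = 0.00866). IL1A, an alarmin cytokine, went from 43.98, 68.1, 31.3 and 63.2 to 84.9, 88.1, 85.3 and 81.0 (0.99 ± 0.22, SE, limma, adjusted p = 0.0147). TRAF1, an adaptor that binds cIAP proteins, went from 57.4, 76.5, 78.2 and 67.4 to 93.9, 89.1, 93.2 and 91.5 (1.14 ± 0.27, SE, limma, adjusted p = 0.0179). For IL1A and TRAF1 all UV lists lay above all unchallenged lists. The promoter percentile of IL1B, a pro-inflammatory cytokine, did so too, going from 0, 9.18, 11.6 and 18.9 to 40.5, 65.3, 72.3 and 75.4, but with no region in 1 unchallenged list it was not fitted. SOD2, which encodes the mitochondrial superoxide dismutase, went the other way, from 94.8, 96.96, 98.5 and 95.3 to 92.5, 84.3, 89.98 and 87.8, without overlap. Its score difference of -0.50 ± 0.15 missed the threshold (SE, limma, adjusted p = 0.0517). The number of regions over SOD2 with its flanks was instead higher in all UV lists (1.37% of genes). It was 9, 8, 8 and 6 without UV and 14, 14, 10 and 12 after UV. The annotated gene, chr6:159669069-159762529 on the minus strand, extends well upstream of its canonical TSS at 159693241, and the count covers that stretch.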

How the data were processed

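ATAC-seq peak lists of 8 libraries were analysed. The authors trimmed adapters with cutadapt 1.9.1, aligned reads with Bowtie2 2.4.5 to hg38 without chromosome Y, filtered them, and called peaks with MACS2 2.2.7.1 in each library without pooling replicates. Per record, the deposited lists gave a fold enrichment, which is a ratio of summit pileup to local background, a −log10 p-value, a −log10 q-value and a score, and the score was not used. The lists reached down to a p-value of 0.01 and carry no read counts, so depth is relative.

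A region was a distinct interval, and regions of the 8 lists that overlapped or touched were joined into sites. Pileup and local background were solved from fold enrichment and p-value, with the lowest background of a library as its depth. Code was tested on simulated data. Sites in all lists were fitted with limma 3.58.1 (trend, 4 group means, Benjamini-Hochberg over all sites, threshold 0.05). Numbers per gene were compared by exact permutation over 70 assignments. Groups and replicate numbers came from the sample titles. The labels name the replicates biological and the study describes independent experiments, so p-values measure the spread between these libraries.

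Members and lists were chosen with earlier results of these data known. Named were each member's strongest promoter and other site and all called or separating sites, and the NFKB1 sites seen in WT cells were singled out after their values were seen. Alternatives were other p or q limits, ranks, scales, flanks of 10 and 50 kb, promoters within 2 kb, coverage of at least 50% of a site, the replicate block and each library left out. The result of the leukocyte marker list is not reported here.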

Additional observations from a re-analysis of the deposited data

Results flagged for a closer look

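The NFKBIA site 13.60 kb downstream of the TSS stood out because its percentile moved one way in WT and the other way in ASH1L-/- cells. It went from 83.8 and 83.7 to 88.2 and 90.6 in WT and from 94.3 and 95.3 to 93.9 and 93.7 in ASH1L-/- cells. With the ASH1L-/- response subtracted from that of WT, the difference was 0.357 in normal score (95% interval -0.21 to 0.92, limma), which was not called.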

How the results depend on the processing

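The count of member sites called after UV, 3 in the report, was 1 with flanks of 10 kb, 5 among regions with a q-value below 0.05, 5 when ranked among sites in all lists, 6 with flanks of 50 kb, 6 on log2 fold enrichment and 6 on uncentred pileup. Among alternatives chosen after seeing the data it was 5 with equal numbers of regions, 8 on centred pileup and 14 on centred local background. On log2 fold enrichment 96.5% of all UV calls were higher, on uncentred pileup 94.2%, and by score 43.9%. On uncentred pileup 9 of the 14 sites followed through these alternatives were higher after UV that were lower by score. Called on at least 1 of these scales were 2 of them, the CXCL8 site at -14.25 kb (0.66 uncentred, 0.071 centred) and the NFKB2 promoter (1.42 and 0.83). The other 7, the promoters of TNFAIP3, BIRC3, NFKB1, RELB and IL6, the CXCL2 site at -10.68 kb and the NFKB2 site at 8.39 kb, were called on none and lay between 0.31 and 0.91 uncentred. Centred pileup opposed the score at 6 of the 14 and log2 fold enrichment at 5. Sites called between genotypes, 0 by score, numbered 3 on centred pileup and 8 on centred local background. Sites in all UV lists alone, 4 in the report, were 2 with flanks of 10 kb. Sites in all lists of a genotype alone, 1 in the report, were 0 with flanks of 10 kb, with 50% of a site covered, under both q-value limits and with equal numbers of regions, and 2 with flanks of 50 kb. Promoter percentiles that separated UV, 1 in the report, were 3 by −log10 p and 2 under both q-value limits and with equal numbers. Region numbers that separated UV, 1 in the report, were 0 with flanks of 10 or 50 kb and 2 at a q-value of 0.01 or below. Those that separated the genotypes, 2 in the report, were 0 with flanks of 10 kb, 4 with flanks of 50 kb, and 1 under both q-value limits and with equal numbers. The cause of these changes was not tested.

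Leaving out each library in turn gave 0 to 3 sites called after UV by score, 4 to 8 on centred pileup and 13 to 15 on centred local background. It gave 4 to 6 sites in all UV lists alone, 0 to 2 in all lists of a genotype alone, 1 to 3 promoter percentiles and 1 to 2 region numbers that separated UV, and 0 to 1 promoter percentiles and 2 to 3 region numbers that separated the genotypes. A library left alone in its group was assumed to vary like the others. By score, no member site was called after UV without replicate 1 of ASH1L-/- post UV or replicate 2 of WT post UV.

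Replicate numbers did not pair the libraries (correlations of deviations between -0.105 and 0.142 over 6 pairs of groups). With the replicate block 3 member sites were called after UV by score, as without it, and none by genotype. Of all sites, the block called 2902 higher and 3548 lower after UV, against 2807 and 3592, and 114 by genotype, against 96. On centred pileup it called 7 member sites in place of 8, the site upstream of BIRC3 being lost (-0.87, adjusted p = 0.0571, limma), and on centred local background 14, as without it. Depth limits the lists, and a region missing from the shallowest library, of depth 1.39, may have been below its limit.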
